A study of Mus musculus with 4 samples.

Results

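The comparison described here is between cultured mouse intestinal epithelial cells given IL-17A plus FGF2 and the same kind of cells given IL-17A, and it shows what went with adding FGF2 when IL-17A was already there. It rests on 2 of the 4 arrays of the series, chosen by their labels, with 1 array a side. The cells given IL-17A plus FGF2 and those given IL-17A were stimulated for 6 h, with IL-17A at 50 ng/ml and, in the first group, FGF2 at 5 ng/ml. The other 2 arrays, FGF2 without IL-17A (5 ng/ml, 6 h) and untreated cells (UN), form a second pair that differs in FGF2 and shares no array with the first. Crypts from mouse intestine had been seeded on fibronectin in a medium with serum and insulin. Strain, age and the number of animals or wells behind each array were not given in the sources used here. With 1 array in each group no test of this comparison was run and no p-value is given, and the number of arrays limits the precision of each value.

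FGF2 is a heparin-binding growth factor that acts through FGF receptors, which are tyrosine kinases, and switches on the RAS-ERK pathway. ERK signalling induces transcription factors of the AP-1 and ETS families and also its own inhibitors, the Sprouty, SPRED and DUSP proteins. IL-17A acts through a receptor that recruits the adaptor Act1, activates NF-kB and stabilises short-lived mRNAs of chemokines and cytokines. Both factors are known for roles in repair of the gut lining, and the series title names wound healing.

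Signals are MAS5 values on a linear scale. Each gene was read from its brightest probe set. A signal below 89.8, which is the median over all non-control probe sets and is called the floor here, was raised to that value before ratios were taken. Where 1 side lay below it, the fold is a minimum and is written as at least. General epithelial markers were bright on every array: Epcam had signals of 18315 with IL-17A plus FGF2, 16949 with IL-17A, 17806 with FGF2 and 16578 in UN, and all 14 listed epithelial genes had a mean over the floor. The defining stem cell genes Lgr5 and Ascl2, the enterocyte genes Fabp1 and Lct and the T cell gene Cd3e were under the floor on all 4 arrays. Other members of their lists were not. Of the listed genes on the array, 17 of 21 for enterocytes, 7 of 12 for stem cells and 3 of 11 for lymphocytes had a mean over the floor. Genes of fibroblasts, smooth muscle and endothelium were well over it, and their values stand beside the results below.

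Among the genes higher with IL-17A plus FGF2 than with IL-17A were the protease genes Mmp9, Mmp13, Mmp3 and Mmp10, the chemokine genes Cxcl2 and Cxcl1 and the cytokine genes Il11, Il6 and Lif, and among those lower were contractile genes such as Cnn1 and Myh11 and the growth factor gene Igf1. Of 12258 genes over the floor on at least 1 of the 4 arrays, 67 (0.547%) were at least 2-fold higher with IL-17A plus FGF2 than with IL-17A and 105 (0.857%) at least 2-fold lower. The genes higher were often brighter: the higher of the 2 signals passed 1000 in 33 of the 67, against 25 of the 105 lower genes, and the fold was a minimum in 6 and 23 of them. Other probe sets over the floor were there for only 20 of the 67 higher and 38 of the 105 lower genes. Judged by sign alone, all of these went the same way for 19 and 36 genes. Some were near 0, such as log2 ratios of 0.05 for Tgfb1 and 0.10 for Cemip, so the same sign does not mean a 2-fold difference.

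Nothing marks 2-fold as a natural border. The genes just over it on the high side were Pdxp (at least 2.01-fold), Gal (2.01-fold) and Cfap69 (2.01-fold), and Lcp2 (1.99-fold), F2rl3 (1.97-fold) and Evi2a (1.96-fold) were just under. On the low side, Selenbp1 (233 against 466), Slc51b (2.01-fold) and Hoxb6 (2.02-fold) were just over it and Lbh (239 against 477), Dact2 (1.99-fold) and Ceacam20 (1.98-fold) just under. Most genes differed far less: over the 11465 genes with a mean signal over the floor, the middle 50% of log2 ratios lay between −0.17 and 0.16 and the median was 0.0077. A 1.5-fold difference was passed upward by 2.91% of these genes and downward by 4.33%.

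In place of a replicate error, the 2 pairs of arrays give a rough scale. The log2 ratio of IL-17A plus FGF2 over IL-17A minus that of FGF2 over UN had an SD of 0.45 among 2614 genes with a mean log2 signal under 8, 0.29 from 8 to 10, 0.18 from 10 to 12 and 0.13 over 12. Any real dependence of the FGF2 response on IL-17A is part of these values. Different probe sets of the same gene differed with an SD of 0.24 in log2 ratio over 4676 genes. A 2-fold difference in a dim gene is therefore much less secure than one in a bright gene.

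**Figure D1:**
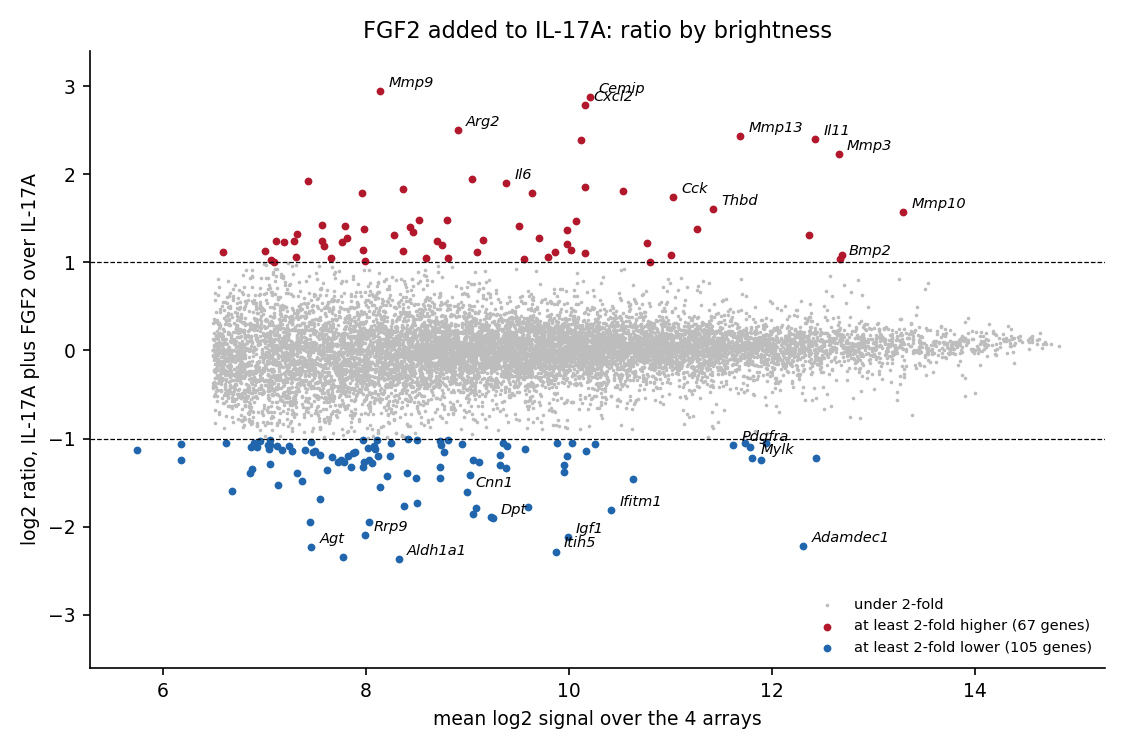
Log2 ratio of IL-17A plus FGF2 over IL-17A (vertical) against mean log2 signal over the 4 arrays (horizontal), 1 point a gene with a mean over the floor or at least 2-fold. Dashed lines mark 2-fold, with 67 genes at or above the upper line and 105 at or below the lower one, and the cloud of other genes narrows toward bright signals.

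Matrix metalloproteinases, the zinc proteases that cut collagens and other matrix proteins, included the gene with the highest floored ratio. Mmp9, a gelatinase, had a signal of 952 with IL-17A plus FGF2 against 124 with IL-17A, and 494 with FGF2 against 109 in UN. Only the arrays with FGF2 were far from the floor, and Mmp9 was 7.69-fold higher in the first pair. The collagenase gene Mmp13 had signals of 9027 with IL-17A plus FGF2 and 1674 with IL-17A, and of 5639 with FGF2 and 1398 in UN. The stromelysin genes Mmp3 and Mmp10 were among the brightest genes past 2-fold. Mmp3 reached 16516 with IL-17A plus FGF2 against 3528 with IL-17A, and 12604 with FGF2 against 2373 in UN. Mmp10 had 18448 with IL-17A plus FGF2 and 6204 with IL-17A, and 14775 with FGF2 and 6006 in UN. In each of these 3 genes both arrays with FGF2 stood above both without it. Folds were 5.39 for Mmp13, 4.68 for Mmp3 and 2.97 for Mmp10.

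Of 16 listed MMP and TIMP genes with a mean over the floor, 4 were at least 2-fold higher with IL-17A plus FGF2 than with IL-17A and 1 lower, where 0.584% and 0.89% of all such genes were. The gene lower was Mmp23, at 76.8 with IL-17A plus FGF2, under the floor, against 258 with IL-17A, so at least 2.87-fold lower. The list median was a log2 ratio of 0.44, and 0.0263 when the floor was set at the 75th percentile. Among the inhibitors of these enzymes, Timp1 was 1.53-fold higher (8988 against 5857), while Timp2 was 1.22-fold and Timp3 1.36-fold lower. The membrane-bound Mmp14, which activates other MMPs, was 1.32-fold higher and the gelatinase gene Mmp2 1.04-fold.

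Mmp3, Mmp10 and Mmp13 lie close together on chromosome 9. They were picked because all 3 were higher, and the 250 bases before each gene start are shown. Of the 16 listed MMP and TIMP genes, 6 were below 0, and Mmp7, given below with the Paneth genes, was lower. Capitals mark the AP-1 heptamer TGANTCA, which reads the same on both strands apart from its middle base. Sequences and coordinates are RefSeq's, on GRCm38.p6.
Mmp3 (chr9:7445572-7445821, + strand): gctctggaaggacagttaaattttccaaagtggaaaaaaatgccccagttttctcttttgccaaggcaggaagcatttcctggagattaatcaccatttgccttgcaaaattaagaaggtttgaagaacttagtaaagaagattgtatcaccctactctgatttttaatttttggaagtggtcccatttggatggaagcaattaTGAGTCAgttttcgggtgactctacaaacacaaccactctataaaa
Mmp10 (chr9:7502092-7502341, + strand): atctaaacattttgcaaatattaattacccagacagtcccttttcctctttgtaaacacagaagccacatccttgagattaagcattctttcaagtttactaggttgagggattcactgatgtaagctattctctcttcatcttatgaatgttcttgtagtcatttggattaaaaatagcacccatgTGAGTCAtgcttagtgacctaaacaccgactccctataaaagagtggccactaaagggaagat
Mmp13 (chr9:7272264-7272513, + strand): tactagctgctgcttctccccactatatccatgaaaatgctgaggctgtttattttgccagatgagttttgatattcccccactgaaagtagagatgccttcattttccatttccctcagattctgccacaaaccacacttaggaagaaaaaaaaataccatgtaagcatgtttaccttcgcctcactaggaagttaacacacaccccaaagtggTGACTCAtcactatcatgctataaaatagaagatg

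The heptamer starts 46 bases before the annotated start in Mmp3, 63 in Mmp10 and 35 in Mmp13. In windows from 250 bases before to 50 after the start, it was present in 10 of 48 matched genes at least 2-fold higher (20.8%) and in 14 of 80 at least 2-fold lower (17.5%). It was present in 6.5% of the 9267 matched genes with a mean over the floor and in 7.81% of all 32851 windows. Both directions thus held it more often than the array as a whole, and a match in a window does not show that a factor binds there. Among the higher genes the holders were Mmp13, Il11, Mmp3, Il6, Mmp10, Tfpi2, Map2k6, Kcne3, Lif and Procr. The ETS core CCGGAAG, read on both strands, was present in 4.17% of the higher and 2.5% of the lower genes against 19.9% of genes with a mean over the floor.

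Hyaluronan, a large sugar polymer of the matrix, is made by the Has enzymes and cut with the help of Cemip. Cemip had a signal of 4382 with IL-17A plus FGF2 against 598 with IL-17A, and of 2777 with FGF2 against 268 in UN. It was 7.33-fold higher in the first pair, although another of its probe sets gave a log2 ratio of only 0.10. The synthase gene Has2 was 1.68-fold higher (710 against 422) and Has1 1.27-fold, while the receptor gene Cd44 was 1.11-fold higher. Of 9 hyaluronan genes with a mean over the floor, 1 was at least 2-fold higher and 0 lower. Of all such genes, 0.584% and 0.89% were.

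Regulators of clotting and plasmin differed in part. Thbd, which encodes thrombomodulin, had 4803 with IL-17A plus FGF2 and 1584 with IL-17A, and 4479 with FGF2 and 1650 in UN, which is 3.03-fold higher in the first pair. Tfpi2, a serine protease inhibitor, was 2.78-fold higher (1901 against 684) and Serpinb2, an inhibitor of plasminogen activators, 1.67-fold. The urokinase gene Plau hardly differed with IL-17A present (229 against 215) but was 2.75-fold higher with FGF2 than in UN (306 against 111). Its receptor Plaur was 1.03-fold higher, and the tissue activator gene Plat 1.07-fold lower. Procr, the receptor of protein C, was 2.13-fold higher.

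Adamdec1, a secreted protease relative, ran against the MMPs. Its signal was 2118 with IL-17A plus FGF2 against 9843 with IL-17A, and 2850 with FGF2 against 11130 in UN. Both arrays with FGF2 were low, and the first pair differed by 4.65-fold. The aggrecan-cutting Adamts4 was 1.36-fold higher and Adamts15 1.28-fold lower.

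CXC chemokines that draw neutrophils did not differ as a block. Cxcl2 had 6656 with IL-17A plus FGF2 against 969 with IL-17A, and 1130 with FGF2 against 232 in UN, so 6.87-fold higher in the first pair. Cxcl1 had 11943 with IL-17A plus FGF2 and 4587 with IL-17A, against 1387 with FGF2 and 484 in UN. Its ratio was 2.60-fold in the first pair. In both genes each factor alone stood above UN and the array with both factors stood highest. Cxcl5 behaved otherwise: it had 4362 with IL-17A plus FGF2 and 3878 with IL-17A, and only 372.5 with FGF2 and 315.5 in UN. Adding FGF2 thus went with a 1.12-fold difference in Cxcl5. Cxcl3 was 1.71-fold higher in the first pair, and Ppbp had 614 against 340.

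Chemokines for other cells lay on both sides. Cxcl13, which attracts B cells, was 2.52-fold lower (431 against 1085) and Cxcl12, a chemokine of stromal cells, 1.66-fold lower (489 against 810). Of 13 genes of CXC chemokines and their receptors with a mean over the floor, 2 were at least 2-fold higher and 1 lower. Over all such genes the shares were 0.584% and 0.89%, and 51.4% were above 0. Of 11 CC chemokine genes, with Cx3cl1 counted among them, 8 were above 0 and 0 were at least 2-fold higher, with a median log2 ratio of 0.15. The monocyte chemokine gene Ccl2 was 1.47-fold higher (1786 against 1216) and Ccl7 1.09-fold. Ccl20, which draws cells bearing Ccr6, was at least 2.19-fold lower, with a signal of 197 on the IL-17A array and under the floor on the other 3.

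The IL-6 family signals through the shared receptor chain gp130. Il11 had 15870 with IL-17A plus FGF2 against 3016 with IL-17A, and 13544 with FGF2 against 1404 in UN. It was 5.26-fold higher in the first pair and 9.65-fold in the second. Il6 had 3491 with IL-17A plus FGF2 against 937 with IL-17A, and 417 with FGF2 against 146 in UN, with a ratio of 3.73-fold in the first pair. Lif was 2.42-fold higher in the first pair (1949.5 against 806) and 1.56-fold in the second (696 against 445), though its other probe set gave a log2 ratio of 0.16. So Il11, Il6 and Lif were all highest with both factors. With FGF2 alone Il11 came near that level, while Il6 and Lif stayed far below it. Clcf1, another ligand of the family, was 1.65-fold higher in the first pair. The receptor genes went the other way in part, with Il6ra 1.69-fold, Il6st 1.16-fold and Osmr 1.14-fold lower. Socs3, the feedback inhibitor of gp130 signalling, was 1.44-fold higher.

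Cxcl1, Cxcl2 and Il6 are known NF-kB target genes, and the bases before their starts are shown for that reason. Capitals mark the NF-kB motif, spelled GGGA, any base, TTTCC and searched on both strands, and in Il6 also the AP-1 heptamer at the left end.
Cxcl1 (chr5:90890995-90891244, + strand): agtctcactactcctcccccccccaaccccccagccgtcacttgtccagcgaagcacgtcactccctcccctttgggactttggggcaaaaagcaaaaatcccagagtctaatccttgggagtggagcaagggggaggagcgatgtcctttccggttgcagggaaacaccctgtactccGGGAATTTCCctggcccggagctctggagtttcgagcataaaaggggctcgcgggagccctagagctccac
Cxcl2 (chr5:90903649-90903898, + strand): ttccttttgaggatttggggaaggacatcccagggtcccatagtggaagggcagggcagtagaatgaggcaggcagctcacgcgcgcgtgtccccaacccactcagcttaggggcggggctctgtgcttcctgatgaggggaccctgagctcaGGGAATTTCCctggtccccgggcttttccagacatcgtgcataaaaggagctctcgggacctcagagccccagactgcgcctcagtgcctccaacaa
Il6 (chr5:30012864-30013113, + strand): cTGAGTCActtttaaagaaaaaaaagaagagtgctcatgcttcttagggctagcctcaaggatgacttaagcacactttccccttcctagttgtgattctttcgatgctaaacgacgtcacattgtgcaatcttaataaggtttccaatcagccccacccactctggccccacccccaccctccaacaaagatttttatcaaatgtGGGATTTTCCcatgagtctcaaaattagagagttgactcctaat

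The motif starts 71 bases before the annotated start in Cxcl1, 97 in Cxcl2 and 44 in Il6. In the 300-base windows these were the only 3 of 48 matched higher genes with the motif (6.25%), against 1 of 80 lower genes (1.25%) and 0.529% of genes with a mean over the floor. All windows held it in 0.411%.

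**Figure D2:**
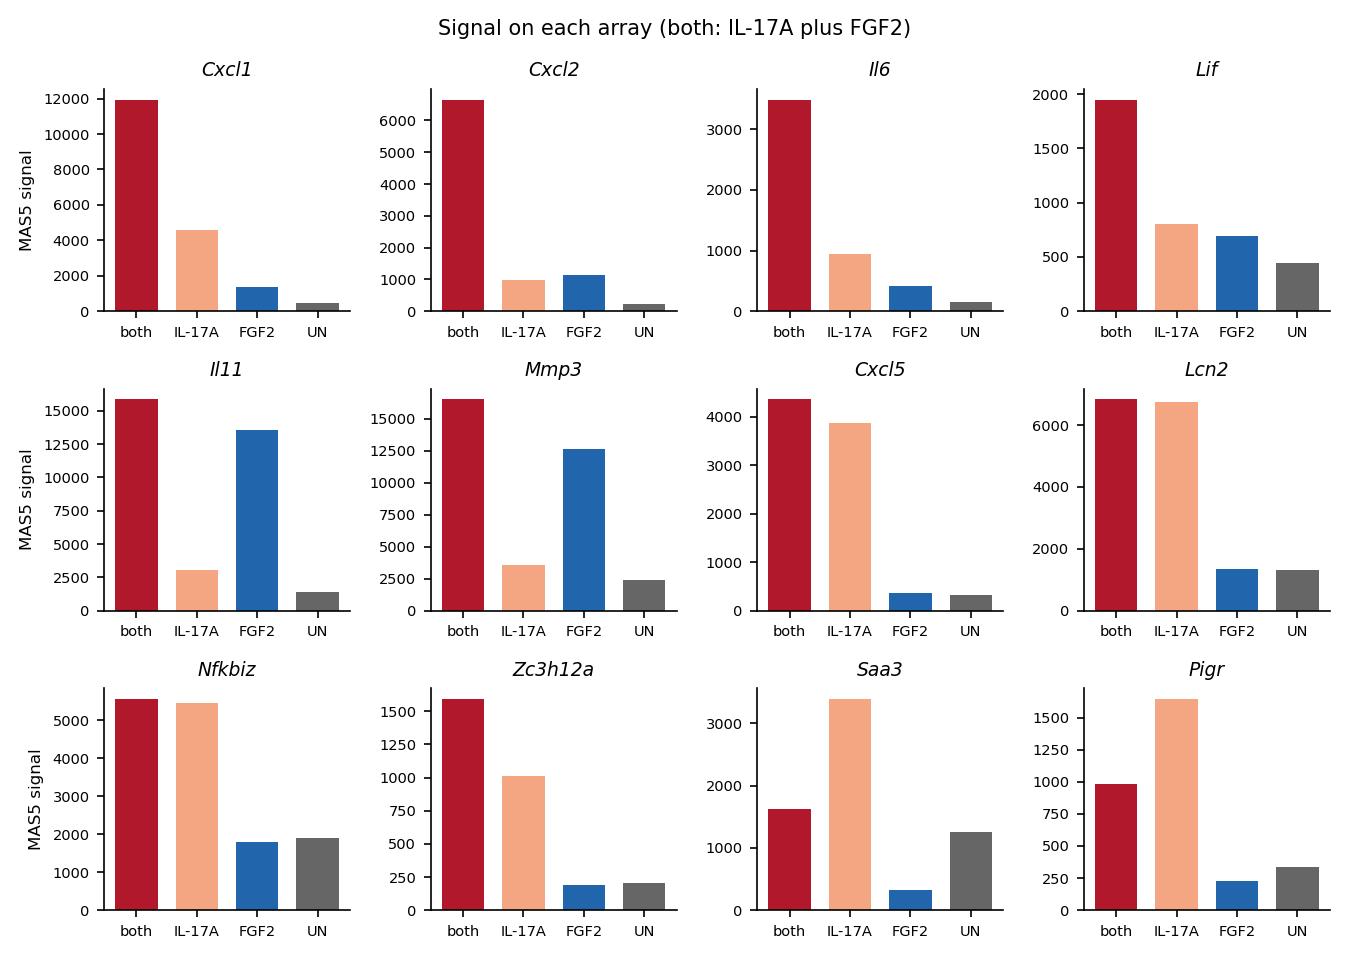
MAS5 signal (vertical, linear from 0) of 12 genes on the arrays with IL-17A plus FGF2, IL-17A, FGF2 and UN, 1 bar an array with no error. Cxcl1, Cxcl2, Il6 and Lif are highest with both factors. Il11 and Mmp3 are highest there too and are also high with FGF2 alone. Cxcl5, Lcn2, Nfkbiz and Zc3h12a are high on both arrays with IL-17A, and Saa3 and Pigr are highest with IL-17A.

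Negative regulators and transcription factors of the NF-kB pathway stayed near their level with IL-17A. Nfkbiz, which encodes the IkB-zeta coactivator of IL-17A target genes, had 5565 with IL-17A plus FGF2 and 5447 with IL-17A, and 1794 with FGF2 and 1901 in UN. Tnfaip3, the deubiquitinase A20, had 2529 with IL-17A plus FGF2 and 2532 with IL-17A, and Cebpd, a transcription factor gene, 6615 and 6985 on the same arrays. Zc3h12a, an RNase that degrades cytokine mRNAs, was the member furthest up at 1.58-fold (1596 against 1013), with 0.08 on the log2 scale in its other probe set, while FGF2 without IL-17A gave 192 against 204 in UN. The adhesion gene Icam1 was furthest down at 1.64-fold. The 16 members with a mean over the floor had a median log2 ratio of 0.0255, and −0.0205 under quantile normalization. At least 2-fold either way were 0 of them, where 0.584% of all such genes were higher and 0.89% lower. Genes of the IL-17 receptor and its adaptors had a median of −0.0711, with Il17ra 1.16-fold higher, Il17rc 1.10-fold lower and the adaptor Traf3ip2 (Act1) at 846 against 855.

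Antimicrobial and acute phase genes split. S100a8, a subunit of calprotectin, had 3740 with IL-17A plus FGF2 against 717 with IL-17A, and 1348 with FGF2 against 419 in UN. It was 5.21-fold higher in the first pair, in a probe set that can detect related transcripts. Its partner S100a9 was under the floor on all 4 arrays. Lcn2 had 6843 with IL-17A plus FGF2 and 6751 with IL-17A, and 1339 with FGF2 and 1300 in UN. FGF2 thus went with almost no difference in Lcn2 in either pair. Saa3 was 2.09-fold lower in the first pair (1627 against 3397) and 3.86-fold lower in the second (323 against 1249). Pigr, which carries IgA across epithelium, was 1.67-fold lower (986 against 1648), Saa1 1.83-fold and the lectin gene Reg3b 1.51-fold. Steap4, a metalloreductase gene, had 357.5 with IL-17A plus FGF2 against 535 with IL-17A. In all, 10 of 13 members with a mean over the floor were below 0, where 51.4% of all such genes were above 0. The list median was −0.58, and it was 0 when the floor was set at the 75th percentile.

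Inhibitors that ERK signalling induces were higher with FGF2, but only some of them. Spry4 had 1487 with IL-17A plus FGF2 against 862 with IL-17A, and 1412 with FGF2 against 898 in UN. The ETS factor gene Etv4 had 211 with IL-17A plus FGF2 and was under the floor with IL-17A, so at least 2.35-fold higher, and had 203 with FGF2 against 122 in UN. Spred3 had 224 against 124, and Dusp4 was 1.42-fold, Spred1 1.35-fold and Spry2 1.26-fold higher. Dusp6, a widely used reporter of ERK activity, had 6752 with IL-17A plus FGF2 and 7175 with IL-17A, and Etv5 323 and 308. Of 14 members with a mean over the floor, 11 were above 0, where 51.4% of all genes were, with a median log2 ratio of 0.28, or 0.0433 when the floor was set at the 75th percentile.

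Immediate early genes, whose transcripts usually peak within the first hours, were mostly flat at 6 h in the first pair. Egr3 had 334 with IL-17A plus FGF2 against 186 with IL-17A, and Ier3 was 1.75-fold higher (15645 against 8953). Fos was 1.07-fold and Egr1 1.11-fold lower, and Myc was 1.09-fold higher. The median over 22 members was 0.0906, and 0 were at least 2-fold different. Over all genes with a mean over the floor, only 0.584% were at least 2-fold higher and 0.89% lower. In FGF2 over UN, 3 of the 22 were at least 2-fold higher, where 0.506% of all such genes were. Among FGF receptors, Fgfr1 was 1.13-fold higher and Fgfr2, the main epithelial receptor gene, 1.85-fold lower (606 against 1122). Fgf15, an ileal hormone that restrains bile acid synthesis, was 2.43-fold lower (117 against 285). Fgf2's own transcript was 1.31-fold higher (158 against 120).

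Other growth factor genes lay on both sides. Bmp2 had 9508 with IL-17A plus FGF2 against 4633 with IL-17A, and 9856 with FGF2 against 4144 in UN. Inhba, the activin A subunit, had 8447 with IL-17A plus FGF2 and 4716 with IL-17A. Tgfb1 was 2.18-fold higher (492 against 225), with 0.05 on the log2 scale in its other probe set, and Pdgfa 1.53-fold. In the EGF family the ligand gene Epgn was 2.53-fold higher (582.1 against 230), and Ereg, already at 14537 with IL-17A, was 1.30-fold higher. The receptor gene Egfr had 2372 against 2002, and the ligand gene Tgfa 1.27-fold lower. Igf1 went far the other way, at 452 with IL-17A plus FGF2 against 1967 with IL-17A, and 485 with FGF2 against 2466 in UN. All 4 of its probe sets were lower. Its binding protein genes Igfbp5 and Igfbp3 were 1.70-fold and 1.45-fold higher.

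Genes of arginine, polyamine and prostaglandin metabolism lay on both sides, with a few of them past 2-fold. Arg2, a mitochondrial arginase, had 1458 with IL-17A plus FGF2 and 258 with IL-17A, and 796 with FGF2 and 176 in UN, 5.66-fold higher in the first pair. Arg1 was 2.07-fold higher (356 against 172). Odc1, which turns the arginase product ornithine into polyamines, was 1.55-fold higher (10808 against 6977), and the spermidine synthase gene Srm 1.32-fold. Of 10 arginine and polyamine genes with a mean over the floor, 8 were above 0 and 2 at least 2-fold higher, while Azin1, the antizyme inhibitor gene, was 1.08-fold and Asl, of arginine synthesis, 1.06-fold lower. For prostaglandin E2, the cyclooxygenase gene Ptgs2 was 1.63-fold higher (17092 against 10514), the synthase gene Ptges 2.30-fold (1782 against 774) and the receptor gene Ptger2 2.17-fold (1434 against 661). Hpgd, which breaks prostaglandins down, was 2.07-fold lower (497 against 1028). Of 12 prostaglandin genes with a mean over the floor, 2 were at least 2-fold higher and 1 lower. Of all such genes, 0.584% were at least 2-fold higher, 0.89% lower and 51.4% above 0.

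Genes of varied function, receptors and hormones among them, filled the other leading places above IL-17A. Ramp3, which pairs with the calcitonin receptor-like receptor, had 1099 with IL-17A plus FGF2 against 285 with IL-17A and was 3.86-fold higher. Rgs1, which shortens G-protein signals, was 3.62-fold higher, and Stc1, a secreted glycoprotein, had 2967 against 847.5. The receptor genes Aplnr (for apelin) and Hcar2 (for nicotinic acid) were each 3.46-fold higher, and the urea channel gene Slc14a1 at least 3.78-fold. Cck, an enteroendocrine hormone, had 3738 with IL-17A plus FGF2 against 1122 with IL-17A, and 4103 with FGF2 against 1100 in UN. No other of the 14 listed enteroendocrine genes with a mean over the floor passed 2-fold, and Chga was 1.13-fold higher. Trbv1, a T cell receptor segment, was 3.56-fold higher in a probe set that can detect related transcripts. Cd3e, of the T cell receptor complex, had 15.9 with IL-17A plus FGF2 and 15.6 with IL-17A, both under the floor. The oxidase gene Hao1 was 2.79-fold higher.

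**Figure D3:**
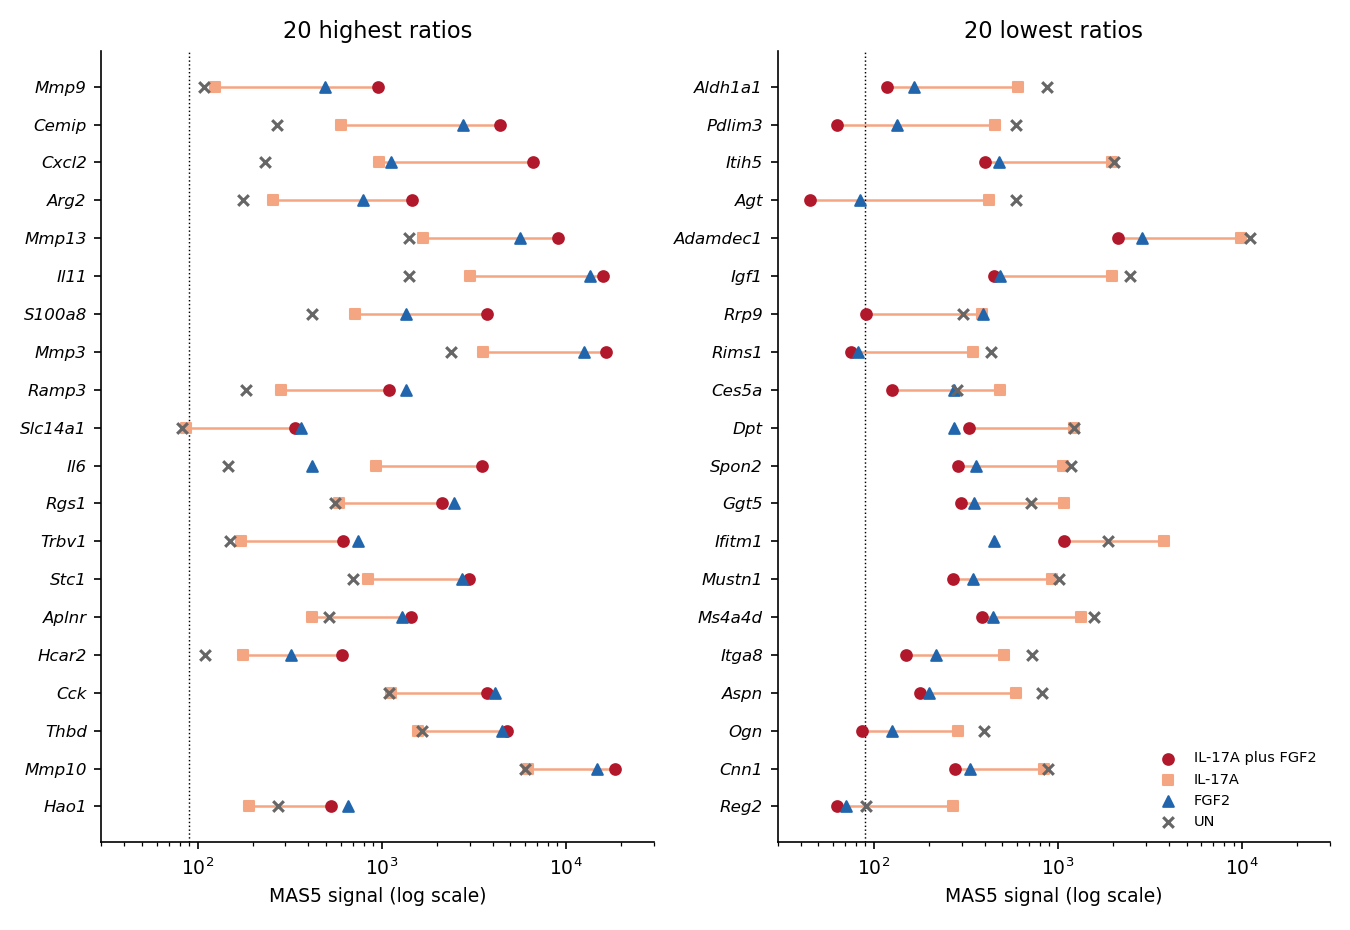
MAS5 signals on a log axis for the 20 named genes highest (left) and 20 lowest (right) by the floored ratio of IL-17A plus FGF2 over IL-17A, genes with clone-type symbols or disagreeing probe sets left out, 1 marker an array, with the line joining those 2 arrays and the dotted line at the floor of 89.8. In most genes the FGF2 array lies near the IL-17A plus FGF2 array and UN near IL-17A, and Cxcl2, Il6, Ifitm1, Rrp9, Ces5a and Reg2 are among the exceptions.

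Cell cycle genes were higher by small amounts in nearly every member. Of 24 genes of G1/S and replication with a mean over the floor, 23 were above 0, with a median log2 ratio of 0.31. Of all such genes, 51.4% were above 0. The replicative helicase gene Mcm7 had 4042 with IL-17A plus FGF2 against 2942 with IL-17A, and the ribonucleotide reductase gene Rrm2 3790 against 2830. Ccnd1, the cyclin D1 gene that growth factors induce, had 6069 against 6225. In G2/M 23 of 25 were above 0, with a median of 0.28, Mki67 at 1.48-fold (1565 against 1054.5) and Aurkb at 1.52-fold higher. When the floor was set at the 75th percentile, the 2 medians were 0.11 and 0.0209. No member of either list reached 2-fold, 0 of 24 and 0 of 25. Ribosomal protein genes had a median of 0.11, with 17 of 18 above 0, but −0.0029 under quantile normalization.

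Smooth muscle markers, most of them contractile genes, had the lowest median of all 53 lists. All 11 members with a mean over the floor were lower with IL-17A plus FGF2 than with IL-17A. The median log2 ratio was −1.10, and 6 members were at least 2-fold lower, where 0.89% of all such genes were. Cnn1, encoding calponin, had 276 with IL-17A plus FGF2 against 837 with IL-17A, and 334 with FGF2 against 889 in UN. Myh11, the smooth muscle myosin, had 531 with IL-17A plus FGF2 and 1377 with IL-17A, and Mylk, its kinase, 2228 and 5176. The arrays with FGF2 were the low ones in both pairs. The other probe set of Myh11 gave a log2 ratio of −0.52, and the 2 others of Mylk disagreed, at 0.04 and −1.20. Acta2 differed less, at 12750 with IL-17A plus FGF2 against 18284 with IL-17A, and Tagln was 1.38-fold lower. The log2 ratio of Acta2 was −0.52, but −0.17 when probe sets were averaged and 0 without probe sets that can detect related transcripts. Summed over the 11 members, the signal was 28871 with IL-17A plus FGF2 and 47023 with IL-17A, and 31755 with FGF2 and 47355 in UN. In RNA from a mixed culture, fewer cells of a type and less RNA per cell cannot be told apart.

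Fibroblast genes did not all lie on one side. Dpt was 3.73-fold lower (330 against 1230), Fap 2.23-fold, the receptor gene Pdgfra 2.10-fold (1984 against 4172), and Col6a1 and Col6a2 each 2.07-fold. Col1a1 was 1.96-fold lower (2408 against 4722) and Col1a2 1.65-fold. By contrast Vim was 1.21-fold, Fn1 1.19-fold and Pdgfrb 1.18-fold higher, and Dcn had 15772 against 13120. Of 18 members, 12 were below 0 and 5 at least 2-fold lower, with a median of −0.50. Of all genes with a mean over the floor, 0.89% were at least 2-fold lower and 51.4% above 0. Their summed signal was 113876 with IL-17A plus FGF2 against 130972 with IL-17A, and 112225 with FGF2 against 127157 in UN. These values, and those of smooth muscle, stand beside the protease, cytokine and matrix results, and their part in those results was not tested.

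Matrix genes beyond fibroblast markers were mostly lower. Among small leucine-rich proteoglycans, Aspn was 3.32-fold lower (178 against 591) and Ogn at least 3.21-fold. In all, 11 of 14 members were below 0 and 4 at least 2-fold lower, while Dcn was among the 3 above 0. Of all genes with a mean over the floor, 51.4% were above 0 and 0.89% at least 2-fold lower. Elastin (Eln) was 2.16-fold lower (407 against 881) and Lox, which cross-links elastin and collagen, 1.69-fold. Of 19 collagen genes with a mean over the floor, 16 were below 0, with Col4a5 at 2.67-fold and Col12a1 at 1.97-fold lower and Col5a3 1.60-fold higher. The fibronectin-binding integrin gene Itga8 was 3.39-fold lower (150 against 509), and Itga5 1.38-fold higher.

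Aldh1a1, an enzyme that makes retinoic acid, was among the genes furthest below IL-17A. It had 119 with IL-17A plus FGF2 against 611 with IL-17A, and 166 with FGF2 against 870 in UN. Its log2 ratio was −2.36 in the first pair, while Aldh1a3, of the same family, had 8587 against 8225. Agt, the precursor of angiotensin, was at least 4.71-fold lower, Pdlim3, a LIM protein of actin filaments, at least 5.07-fold, and Itih5, a hyaluronan-associated protein, 4.86-fold. The order of these genes depends on the floor: with a floor at the 25th percentile the log2 ratio was −2.85 for Pdlim3 and −2.36 for Aldh1a1, and Agt lay below both. All 3 were also low with FGF2 against UN. Spon2 was 3.71-fold, Ggt5 3.61-fold, Mustn1 3.45-fold and Ms4a4d 3.43-fold lower, and Rims1 at least 3.86-fold.

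Epithelial identity genes were level while absorptive and goblet genes were mostly lower. Epcam was 1.08-fold, Krt8 1.05-fold and Cldn3 1.13-fold higher, and Vil1, of the brush border, 1.37-fold lower. The 14 general markers had a median log2 ratio of 0.0133, and of −0.0566 under quantile normalization. Their summed signal was 165772 with IL-17A plus FGF2 and 161672 with IL-17A.

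Enterocyte genes were below 0 in 14 of 17 members with a mean over the floor, where 51.4% of all such genes were above 0. Their median was −0.37, or 0 when the floor was set at the 75th percentile. Slc10a2, the ileal bile acid transporter, was 215 with IL-17A and under the floor with both factors, so at least 2.40-fold lower. The brush border protease gene Mep1b had 387 with IL-17A plus FGF2 against 882 with IL-17A and was 2.28-fold lower. The chloride exchanger gene Slc26a3 was 1.81-fold, Alpi 1.49-fold and Fabp2 1.48-fold lower. Krt20, of differentiated surface cells, had 19681 against 18547.

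Goblet genes were below 0 in 10 of 11 members with a mean over the floor, with a median of −0.27. Of all such genes, 51.4% were above 0. Agr2, needed for mucin folding, was at least 2.06-fold lower. Clca1 was 1.48-fold lower and Fcgbp had 687 against 1239, whereas Tff3 had 16041 with IL-17A plus FGF2 and 16373 with IL-17A. Muc2 was 1.21-fold lower (2335 against 2815). Of 4 listed Paneth genes with a mean over the floor, 4 were below 0. Their median was −0.37, or 0 when the floor was set at the 75th percentile. Among them, Mmp7 was 1.65-fold lower and Lyz1 had 2514 against 2528. Of 7 stem-associated genes with a mean over the floor, 0 reached 2-fold, with Rgmb at 1.28-fold higher and Hopx at 1.49-fold lower.

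Endothelial markers were the list with the highest median. Of 15 members, 13 were above 0, where 51.4% of all genes were, with a median log2 ratio of 0.56, and 0 reached 2-fold. The VEGF receptor genes Flt1 and Kdr were 1.86-fold (858 against 461) and 1.75-fold (369 against 210) higher, Emcn 1.70-fold (3504 against 2063) and Cdh5 1.68-fold (2150 against 1280). Eng had 944 against 1010. The summed signal was 18214 with IL-17A plus FGF2 against 12099 with IL-17A, and 16903 with FGF2 against 13011 in UN. Of 12 angiogenic factor and receptor genes, 7 were above 0 and 5 below, with a median of 0.17 and 0 at 2-fold. Angpt2 was 1.84-fold, Dll4 1.70-fold and Vegfa 1.41-fold higher, and Angpt1 was 1.34-fold and Angptl4 1.25-fold lower.

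Other cell types showed little. Macrophage markers had a median of −0.13, with Csf1r at 396 with IL-17A plus FGF2 and 392 with IL-17A, although the LPS receptor gene Cd14 was 2.34-fold higher (3081 against 1318). Of 5 neutrophil genes on the array, Camp alone had a mean over the floor, at 270 against 299. The glial adhesion gene Cdh19 was 2.13-fold lower and Sox10 1.14-fold higher.

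Interferon-stimulated genes were below 0 in 18 of 20 members, with a median of −0.30, where 51.4% of all genes were above 0. Ifitm1 was 3.51-fold lower (1080 against 3792) and Ifi27l2a 2.62-fold (229 against 601). Ifitm3 had 13410 with IL-17A plus FGF2 and 13432 with IL-17A, and Irf1 1212 and 1248. Glycolytic, unfolded protein response and cholesterol synthesis lists had medians of 0.0856, 0.0402 and 0.0115, with 0 members at least 2-fold different. Over all genes with a mean over the floor, 0.584% were at least 2-fold higher and 0.89% lower. In the cystine and glutathione list, the cystine transporter gene Slc7a11 was 1.94-fold higher (746 against 384).

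**Figure D4:**
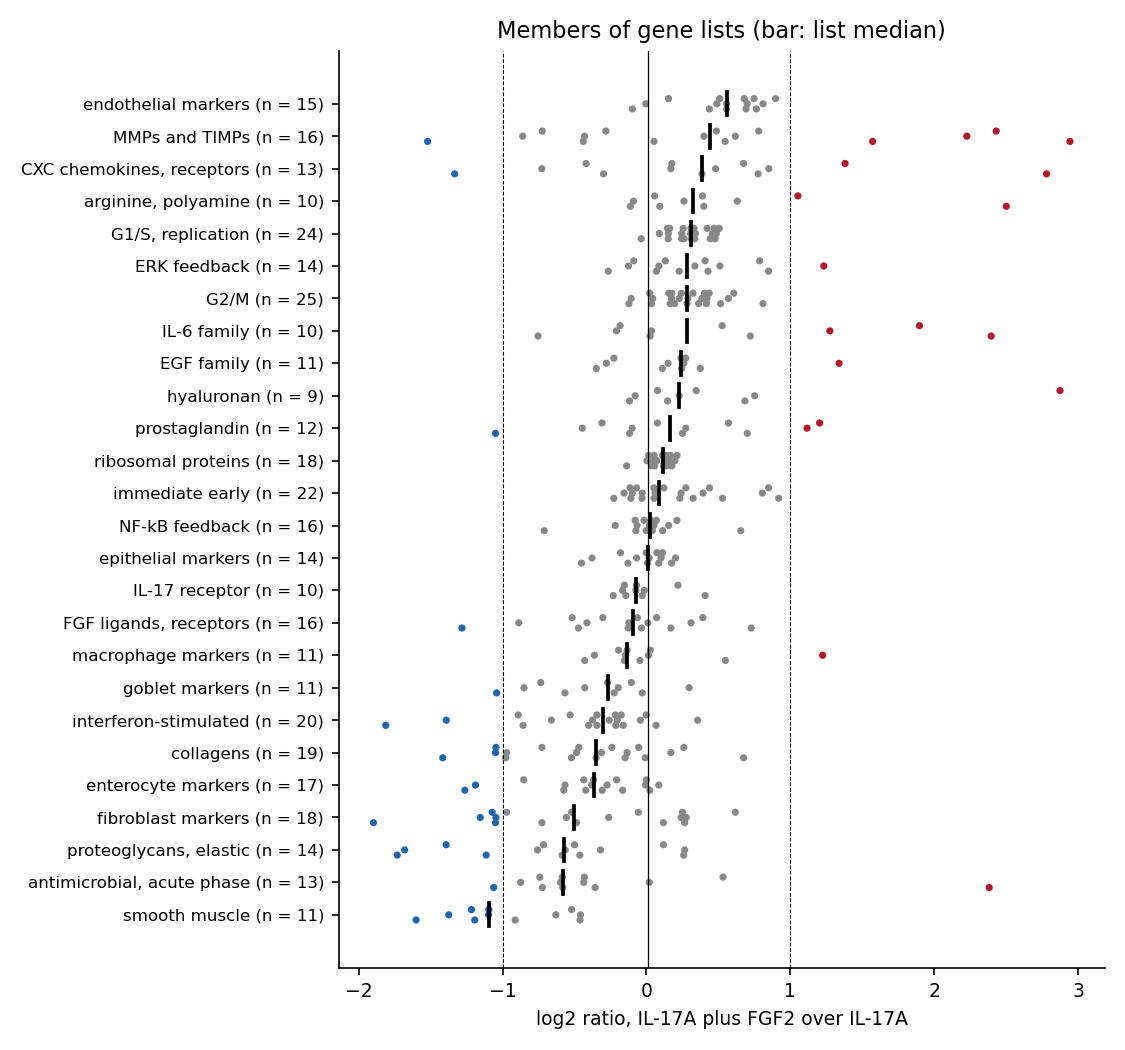
Log2 ratios of IL-17A plus FGF2 over IL-17A for members of 26 gene lists with a mean over the floor, 1 point a gene, black bars at list medians and dashed lines at 2-fold. Endothelial markers have the highest median (0.56) and smooth muscle genes the lowest (−1.10), where the median of all genes is 0.0077.

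The FGF2 ratio could be read again without IL-17A, in FGF2 against UN. Of the 67 genes at least 2-fold higher with IL-17A plus FGF2 than with IL-17A, 44 were at least 2-fold higher in the second pair too, 60 at least 1.5-fold and 65 above 0. Of the 105 lower, 52 were at least 2-fold lower there, 81 at least 1.5-fold and 96 below 0. None of either set, 0 and 0, was at least 1.5-fold the other way. Over all genes with a mean over the floor, 0.506% were at least 2-fold higher and 1.02% lower with FGF2 than in UN. The ratio was the larger one in the first pair for 42 of 67 higher and 73 of 105 lower genes, which were chosen in that pair, and that choice alone favours larger values there. Across the 11465 genes the 2 ratios had r = 0.60 and rho = 0.49, which describes genes of the same 4 arrays and not independent replicates.

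Among genes at least 2-fold different in the first pair, those whose ratios differed most between the pairs were mostly dim. The furthest below was Rrp9, a nucleolar protein gene, at 90.8 with IL-17A plus FGF2 against 389 with IL-17A, and 391 with FGF2 against 305 in UN. It was low on 1 array and between 305 and 391 on the other 3. Ces5a was 3.85-fold lower with IL-17A plus FGF2 than with IL-17A and 1.04-fold lower with FGF2 than in UN, and Reg2 at least 3.02-fold and at least 1.01-fold. The Ces5a probe set can detect related transcripts. Reg2 was over the floor in IL-17A (271) and UN (90.8) alone, and the sodium channel gene Scnn1b was highest in IL-17A too (227). In the other direction, Tbxa2r was at least 2.17-fold and Tcl1b3 2.57-fold higher in the first pair, and both were below 0 in the second. Tbxa2r had a signal of 195 on both the IL-17A plus FGF2 and UN arrays and of 16.6 with IL-17A. Among genes singled out after their values were seen, Mmp9 and S100a8 had log2 ratios 0.76 and 0.70 larger with IL-17A present, while Il11 and Ramp3 had ratios smaller by 0.87 and 0.94.

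**Figure D5:**
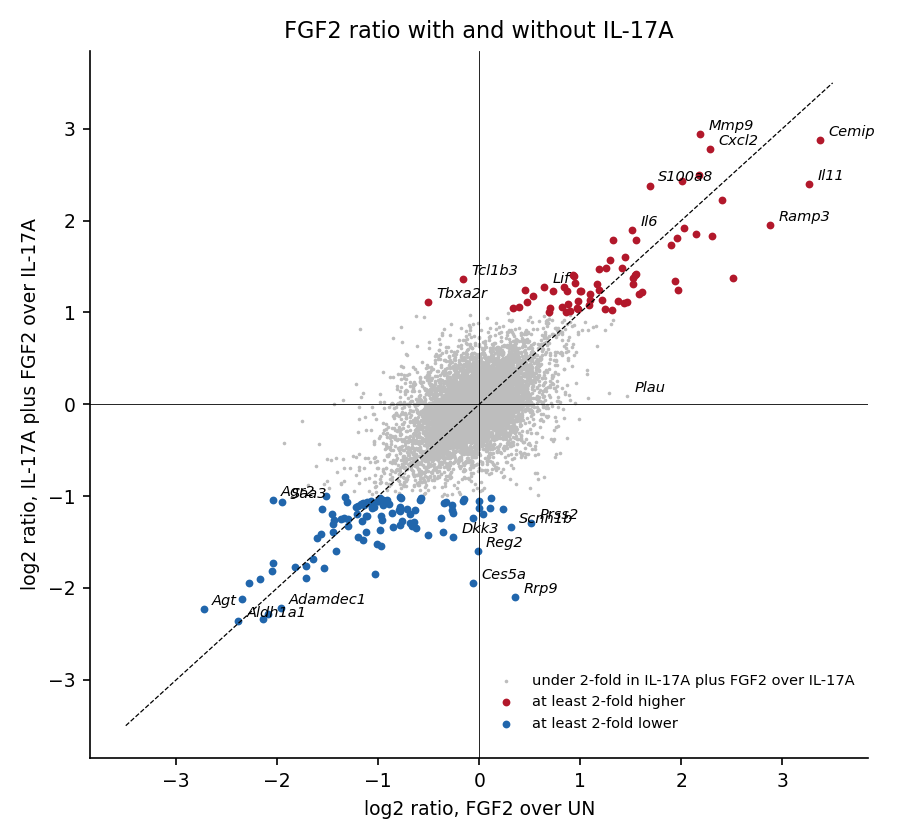
Log2 ratio of IL-17A plus FGF2 over IL-17A (vertical) against that of FGF2 over UN (horizontal), 1 point a gene with a mean over the floor or at least 2-fold in the first ratio, and the dashed line where both are equal. Most coloured genes lie in the quadrants where both ratios have the same sign, and Rrp9, Ces5a, Reg2, Tcl1b3 and Tbxa2r lie off the line.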

How the data were processed

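The 4 samples, 1 per group, were hybridised to 1 Affymetrix expression array each from biotin-labelled cRNA, per the labels' protocols. Per the submitters' processing notes, the deposited log2 signals were made by the authors with MAS5, with no version stated in the labels. This algorithm corrects for mismatch probes, so dim values are noisy. On the linear scale every array had a 2% trimmed mean of 500, a common scaling. Of 45101 probe sets, 64 controls were left out, and the platform annotation gave 1 symbol for 34945, several for 932 and none for 9160. Entrez numbers linked 34741 of the first to the RefSeq table of GRCm38.p6, with 0 symbols altered.

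A gene was its brightest probe set by mean log2 (18193 genes), floored at log2 6.49 before ratios were taken. List counts and medians use members whose mean over the 4 arrays passed the floor (11465 genes). Lists held 867 entries, 843 genes, of which 78 had no match. Named genes were the 20 highest and 20 lowest of those at least 2-fold whose other probe sets went the same way. Clone, model and accession-type symbols were counted but not named (1 of the higher and 2 of the lower genes). List members were named as well, and the 3 genes on each side of the threshold. Among genes at least 2-fold in the first pair, the 8 furthest each way by the difference between pairs were named too. Members, lists and rules were chosen with earlier results of these data known. Promoter windows came from RefSeq. Python 3.11.15, numpy 2.4.6, pandas 2.3.3, scipy 1.17.1 and matplotlib 3.10.9 were used, and the code was tested on simulated arrays. Alternatives covered scaling, floor, probe set choice and fold threshold.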

Additional observations from a re-analysis of the deposited data

Results flagged for a closer look

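Among genes at least 2-fold different between IL-17A plus FGF2 and IL-17A, 9 had a ratio of the opposite sign between FGF2 and UN. The log2 ratios in the first pair were 1.12 for Tbxa2r, 1.36 for Tcl1b3, −1.02 for Clip4, −1.14 for Foxp2, −1.29 for Prss2, −1.13 for Psg23, −2.10 for Rrp9, −1.34 for Scnn1b and −1.19 for Zcchc12. In FGF2 over UN they were −0.51 for Tbxa2r, −0.16 for Tcl1b3, 0.11 for Clip4, 0.23 for Foxp2, 0.51 for Prss2, 0.11 for Psg23, 0.36 for Rrp9, 0.32 for Scnn1b and 0.03 for Zcchc12. With 1 array a group, this difference was not tested. Tcl1b3 was the brightest of the 9 on the IL-17A plus FGF2 array, and the probe sets of Tcl1b3, Prss2, Psg23 and Clip4 can detect related transcripts.

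Probe sets without a single gene symbol entered no gene result. Of 10092 such probe sets, 16 were higher and 8 lower by 2-fold or more with IL-17A plus FGF2 than with IL-17A.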

How the results depend on the processing

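The number of genes past 2-fold depended on how dim signals were treated. Counts higher and lower were 274 and 442 when the floor was the 25th percentile of signals, 35 and 26 when it was the 75th, and 44 and 56 with the floor added to the signal. They were 343 and 501 at 1.5-fold and 18 and 20 at 3-fold. Genes at least 2-fold in the same direction in both pairs were 44 higher and 52 lower. A floor at the 75th percentile gave 24 and 15. At 1.5-fold the counts were 134 and 247, and at 3-fold 14 and 14. The lower ones were 100 for the 25th percentile floor, 27 with the floor added and 34 when probe sets were averaged. Of the 67 and 105 genes called, 65 and 93 passed 2-fold under quantile normalization, 67 and 99 after centring on the median, and 47 and 69 when probe sets were averaged. Without probe sets open to related transcripts 56 of 59 and 85 of 95 did. None of the called genes, 0 in each direction, changed sign under these 7 alternatives. The changes of floor could not reverse a sign, because they keep the order of the 2 signals. Centring could not reverse a 2-fold ratio either. It shifts each array by a constant and moved the median log2 ratio only from 0.0077 to 0.0405. With the 75th percentile floor, 48 of the 67 and 50 of the 105 kept their sign and the rest were at 0. Without those probe sets, 58 of 59 and 90 of 95 kept it. The smooth muscle median lay between −1.10 and −0.63 over the alternatives and the endothelial one between 0.51 and 0.59. No paired analysis was possible because the labels carry no replicate numbers and each group has 1 array. An additive fit over the 4 arrays, which takes the FGF2 difference as equal with and without IL-17A, was not run.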
